A study of Mus musculus with 6 samples.

Results

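Cytosolic sulfotransferases were examined in the livers of mice lacking SRC-2 and of wild-type mice. The 9 genes Sult1a1, Sult1b1, Sult1c2, Sult1d1, Sult1e1, Sult2a2, Sult2b1, Sult3a1 and Sult5a1 were chosen by name, as every probe set that the array annotation assigns to exactly 1 of these symbols. This gave 10 of the 45101 probe sets on the array, 2 of them for Sult1d1, and 9 of the 18194 genes with such a probe set. No probe set assigned to several genes named a member.

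Total RNA came from flash-frozen liver of female mice on a C57 background, 3 labelled SRC-2 null and 3 labelled wild-type. SRC-2 is the nuclear receptor coactivator encoded by Ncoa2. Both genotypes had their ovaries removed at 6 weeks, with liver taken 2 weeks after that by cervical dislocation under Avertin, so none of the mice had ovaries. The labels do not describe the allele, the tissue in which it is deleted or the feeding state, and they do not say that the arrays of a genotype came from separate animals. The p-values therefore measure the spread between these arrays, which may be technical.

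Cytosolic sulfotransferases transfer sulfate from the donor PAPS to hydroxyl and amino groups of small molecules. The products are more soluble in water and, for most hormones, inactive at their receptors. In liver the family conjugates phenols and drugs (family 1), hydroxysteroids, bile acids and cholesterol (family 2) and amines (family 3). In mouse liver, members of the 2a and 3a subfamilies are known for higher expression in females than in males.

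Values are log2 expression values from robust multi-array averaging (RMA), which are relative within a probe set and are not compared between genes. The array medians lay between 4.17 and 4.24. A gene was tested with limma if the mean of its brightest probe set over the 6 arrays reached 4.21, the median of all probe sets, and a call meant an adjusted p (Benjamini-Hochberg over the 11895 tested genes) below 0.05. Ncoa2 checked the labels: its brightest probe set, 1435233_at, read 5.60, 5.44 and 5.86 in SRC-2 null liver, against 7.74, 7.92 and 8.53 in wild-type liver. The groups did not overlap, and the limma fit gave an adjusted p of 0.000354 for a log2 fold change of -2.44 (SE 0.20). The Ncoa2 probe set 1435234_at also fell (-2.16), while 1450458_at, at -0.27, and 1446827_at, at 0.07, did not pass. Replicate 3 of both genotypes stood apart from the other arrays. Its deviations from the genotype means correlated at 0.52 between genotypes and at -0.34 to -0.27 with replicates 1 and 2 of the other genotype. Deviations within a genotype sum to 0, so the negative values follow at least in part from the positive one. Among defining markers of hepatocytes, 0 of 9 were called, and 0 had an unadjusted p under 0.05 in limma. Their summed linear level was 111568 to 114467 in SRC-2 null and 111832 to 115055 in wild-type liver.

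Sult2a2, Sult3a1 and Sult5a1 were lower in SRC-2 null liver, 5.42-fold, 2.84-fold and 1.76-fold. These 3 were the only calls among the 8 members tested. Over all genes tested 4.67% were called, 3.13% lower and 1.55% higher. All 3 were also at least 1.5-fold lower, and 1.95% of all genes tested were both called and at least 1.5-fold lower. With every probe set tested on its own, 2.41% of probe sets were called. No member was called higher, and 1 member, Sult1e1, had an unadjusted p under 0.05 in that direction in limma. Sult2b1 lay below the filter and was not tested. In each of the 8 members tested, the means of both genotypes lay above 4.21, so none passed the filter through 1 genotype alone. The median log2 fold change of the 8 was -0.41, against 0.00 over all genes tested. Values of the 2 genotypes did not overlap in 5 of the 8, with Sult2a2, Sult3a1, Sult5a1 and Sult1c2 below and Sult1b1 above. Over all genes tested, 12.5% had all SRC-2 null arrays below all wild-type arrays and 10.8% above, 23.4% in all.

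**Figure D1:**
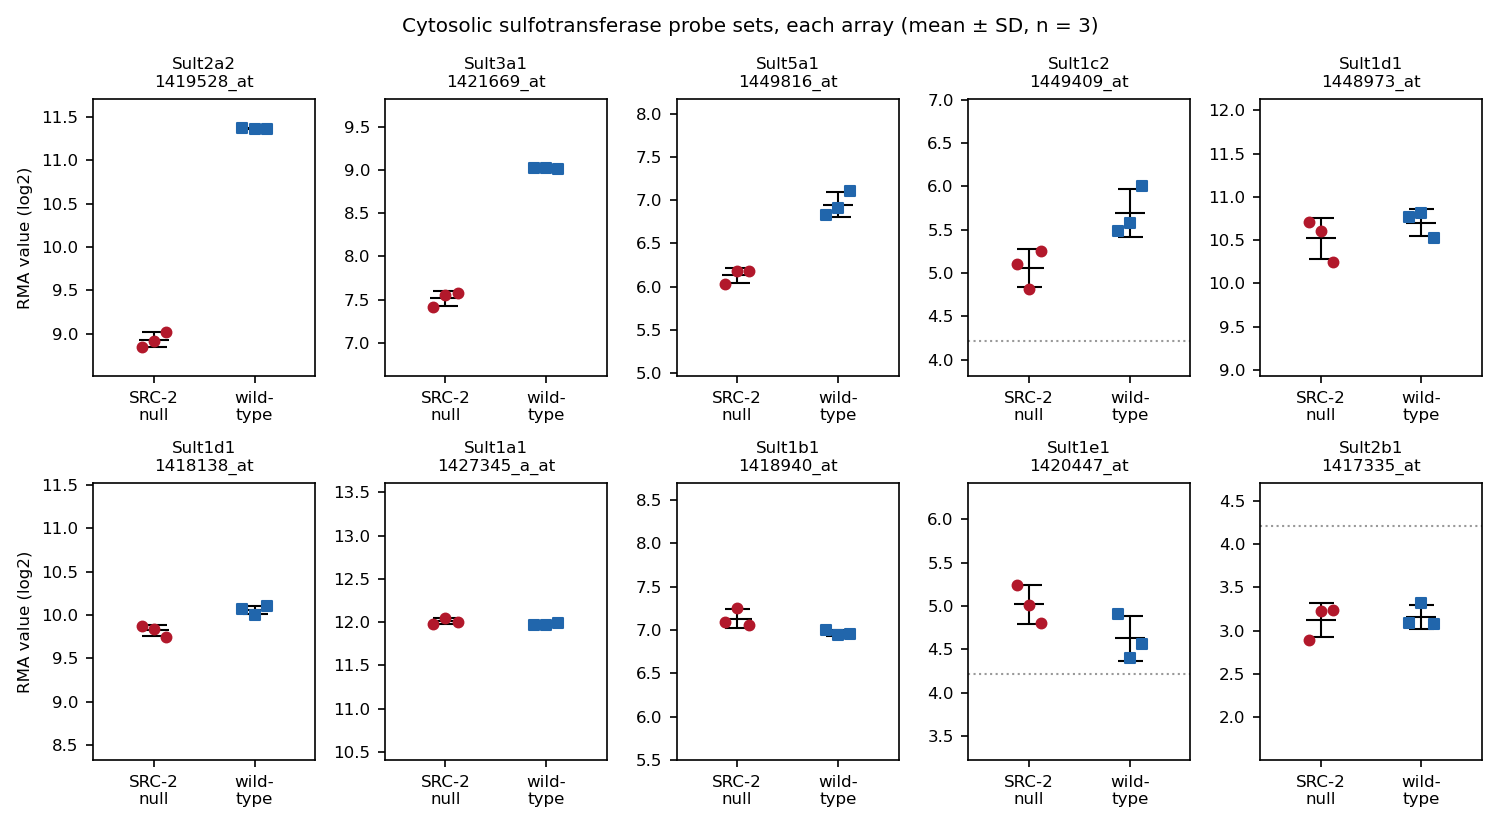
RMA values (log2) of the 10 sulfotransferase probe sets on each array, with SRC-2 null arrays as circles and wild-type arrays as squares, and the mean ± SD of each genotype (n = 3). Every panel spans the same log2 range, and the dotted line marks the filter of 4.21 where it falls inside a panel. The 3 SRC-2 null arrays lie below the 3 wild-type arrays for Sult2a2, Sult3a1, Sult5a1, Sult1c2 and 1 of the 2 Sult1d1 probe sets.

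Promoter windows of the called members are shown because these genes moved in the same direction. RefSeq (GRCm38.p6) gave windows from 250 bases before to 50 bases after a start site for 8 of the 9 members, 10 windows in all. Sult2a2 is named only. For Sult3a1 and Sult5a1 the start site of the window is not the outer end of the annotated gene. Both sequences run 5′ to 3′ on the strand of the gene, and capitals mark matches to the motifs searched.
Sult3a1, chr10:33857472-33857771, plus strand: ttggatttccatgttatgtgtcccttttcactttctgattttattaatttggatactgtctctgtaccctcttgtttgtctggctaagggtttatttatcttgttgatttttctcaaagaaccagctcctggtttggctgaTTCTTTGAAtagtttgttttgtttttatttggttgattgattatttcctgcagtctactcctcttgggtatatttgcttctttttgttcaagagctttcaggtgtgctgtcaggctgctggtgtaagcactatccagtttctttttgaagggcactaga
Sult5a1, chr8:123158231-123158530, minus strand: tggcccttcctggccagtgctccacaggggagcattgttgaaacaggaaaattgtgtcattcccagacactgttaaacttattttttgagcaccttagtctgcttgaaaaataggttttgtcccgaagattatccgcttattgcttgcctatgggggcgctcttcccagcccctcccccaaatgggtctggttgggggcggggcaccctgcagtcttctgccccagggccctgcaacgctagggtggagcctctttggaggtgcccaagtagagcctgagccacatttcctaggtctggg

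The motifs were the nuclear receptor half-site AGGTCA, its variant AGTTCA, the STAT site TTCNNNGAA and the TATA box TATAAA, each on both strands. They do not overlap in the member windows. The Sult3a1 window held 1 STAT match, whose first base lies at position -109 from the start site, and none of the other motifs. The Sult5a1 window held none of the motifs. AGGTCA occurred in 2 of the 10 member windows, those of Sult1b1 and Sult1e1, and in 16.3% of the 32851 windows of the table. AGTTCA occurred in 2 (Sult1b1 and Sult1d1) and in 14% of all windows. The STAT site was found in 1 member window and in 8.3% of all windows, and the TATA box in 1 (Sult1d1) and in 13.6%. These are matches of letters only.

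Of the hydroxysteroid sulfotransferases, Sult2a2, whose subfamily conjugates steroids such as dehydroepiandrosterone and bile acids, had the widest difference of the family. Its probe set, 1419528_at, read 8.85, 8.91 and 9.02 on the SRC-2 null arrays, against 11.37, 11.37 and 11.36 on the wild-type arrays. The groups lay far apart, and the wild-type arrays were nearly identical. The means were 8.93 ± 0.09 in SRC-2 null and 11.37 ± 0.00 in wild-type liver (SD, n = 3 each), a log2 fold change of -2.44 (SE 0.08, 95% interval -2.62 to -2.25, limma adjusted p = 3.15e-06). In whole liver, fewer cells of a type and less RNA per cell cannot be told apart. Among the 11895 genes tested, 8 had a lower log2 fold change than Sult2a2. On RefSeq's gene order Sult2a2 lies between Sult2a5 and Sult2a1 in a cluster of close relatives on chromosome 7. Sult2a2 and Sult2a8 were the genes of the cluster with a probe set here. The probe sequences were not used here, so how much of the Sult2a2 signal came from relatives is uncertain.

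Sult2a8, a gene of the same cluster that is not among the 9, read 11.070, 10.995 and 10.745 in SRC-2 null liver, against 11.281, 11.367 and 11.313 in wild-type liver. The groups did not overlap. The log2 fold change was -0.38 (SE 0.10, 95% interval -0.62 to -0.15), with a limma adjusted p of 0.0841 that did not pass. Its adjusted p was 0.0367 with replicate 3 of both genotypes as a term in the fit. The intervals of Sult2a2 and Sult2a8 lie apart, but the difference between their changes was not tested. The nearest tested genes outside the family on either side of Sult2a2, chosen by position, were Lig1, Cabp5, Crx and Selenow, and none was called. Their log2 fold changes were -0.39, 0.06, -0.19 and -0.08, with an adjusted p of 0.0942 for Lig1.

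Sult2b1, which sulfates cholesterol and pregnenolone, had 1 probe set, 1417335_at, which read 2.89, 3.23 and 3.24 in SRC-2 null liver, against 3.08, 3.32 and 3.07 in wild-type liver. The groups overlapped, and all 6 values lay below 4.21. The means were 3.12 ± 0.20 in SRC-2 null and 3.16 ± 0.14 in wild-type liver (SD, n = 3 each), so no difference was detectable at this signal.

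Sult3a1, known in mouse as an amine sulfotransferase, was measured by 1421669_at. It read 7.41, 7.56 and 7.58 on the SRC-2 null arrays, against 9.03, 9.02 and 9.01 on the wild-type arrays. Every SRC-2 null value was lower than every wild-type value, and the wild-type arrays again lay close together. The means were 7.52 ± 0.09 in SRC-2 null and 9.02 ± 0.01 in wild-type liver (SD, n = 3 each). The log2 fold change was -1.51 (SE 0.08, 95% interval -1.69 to -1.32, limma adjusted p = 3.59e-05). The annotated neighbour on one side is Sult3a2, a paralog with no probe set of its own here, so a share of the signal from Sult3a2 cannot be told apart. Of the nearest tested genes outside the family, Tpd52l1 had a log2 fold change of 0.14, Rnf217 of -0.13 and Zup1 of 0.10, and none of these passed. Calhm6 was called lower, at -0.62 (adjusted p = 0.0225), and passed the filter only through wild-type liver.

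Sult5a1, measured by 1449816_at, read 6.03, 6.18 and 6.18 in SRC-2 null liver, against 6.82, 6.91 and 7.11 in wild-type liver. The groups did not overlap. The means were 6.13 ± 0.09 in SRC-2 null and 6.95 ± 0.15 in wild-type liver (SD, n = 3 each), with a log2 fold change of -0.82 (SE 0.10, 95% interval -1.05 to -0.59, limma adjusted p = 0.00272). The flanking tested genes Spg7, Cpne7, Dpep1 and Chmp1a, at 0.03, 0.13, 0.33 and -0.03 on the log2 scale, did not pass.

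Within family 1, Sult1c2 had the largest difference. Its probe set, 1449409_at, read 5.10, 4.82 and 5.25 in SRC-2 null liver, against 5.49, 5.58 and 6.01 in wild-type liver. The groups did not overlap, and wild-type replicate 3 stood highest. The log2 fold change was -0.63 (SE 0.16, 95% interval -1.002 to -0.265), and the limma adjusted p of 0.0703 did not pass. With the replicate number as a block the adjusted p was 0.0182, which passes, and 4 members were then called lower.

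Sult1a1, the main phenol sulfotransferase, which also conjugates drugs such as paracetamol, was measured by 1427345_a_at. It read 11.983, 12.048 and 11.997 in SRC-2 null liver, against 11.970, 11.969 and 11.994 in wild-type liver. The groups overlapped. The log2 fold change was 0.03 (SE 0.08), and its 95% interval of -0.14 to 0.20 spans ratios of SRC-2 null to wild-type from 0.907 to 1.15. The limma adjusted p was 0.888. A change of the size seen in Sult5a1 lies outside this interval.

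Sult1b1, Sult1d1 and Sult1e1 are neighbours on chromosome 5 in RefSeq's gene order. Sult1b1, which conjugates thyroid hormones, was measured by 1418940_at. It read 7.088, 7.254 and 7.054 in SRC-2 null liver, against 6.999, 6.943 and 6.955 in wild-type liver. The groups did not overlap, with SRC-2 null above. The log2 fold change of 0.17 (SE 0.09, 95% interval -0.03 to 0.36) did not pass (limma adjusted p = 0.384). Sult1e1, the oestrogen sulfotransferase, was measured by 1420447_at. It read 5.24, 5.01 and 4.80 in SRC-2 null liver, against 4.91, 4.40 and 4.57 in wild-type liver. The groups overlapped at the low end of the tested range. Its log2 fold change was 0.39 (SE 0.16, 95% interval 0.03 to 0.75), with a limma adjusted p of 0.246 that did not pass.

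Sult1d1, which in mouse sulfates dopamine, was measured by 2 probe sets. The brighter, 1448973_at, read 10.71, 10.60 and 10.25 in SRC-2 null liver, against 10.77, 10.81 and 10.52 in wild-type liver. These groups overlapped, and replicate 3 was lowest in both genotypes. The log2 fold change was -0.18 (SE 0.14, 95% interval -0.49 to 0.13, limma adjusted p = 0.582). It was -0.04 without SRC-2 null replicate 3 and -0.27 without SRC-2 null replicate 1 or wild-type replicate 3, so its size rested on single arrays. The other, 1418138_at, read 9.876, 9.840 and 9.749 in SRC-2 null liver, against 10.064, 10.004 and 10.102 in wild-type liver. Here the groups did not overlap. Its log2 fold change of -0.24 had a limma adjusted p of 0.266 when every probe set was tested on its own and did not pass. Both estimates lay below 0, and neither passed. The tested genes on either side of this cluster include Ugt2b38, a glucuronosyltransferase that rose (log2 fold change 1.42, adjusted p = 0.00147), and Jchain, a plasma cell gene that fell (-2.51, adjusted p = 4.21e-06). Ugt2b38 passed the filter only through SRC-2 null liver, with a mean of 5.20 there and of 3.78 in wild-type liver. Ugt2a3, at 0.03, lies beyond Ugt2b38, and Prr27, at 0.21, lies between the cluster and Jchain. Neither was called.

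**Figure D2:**
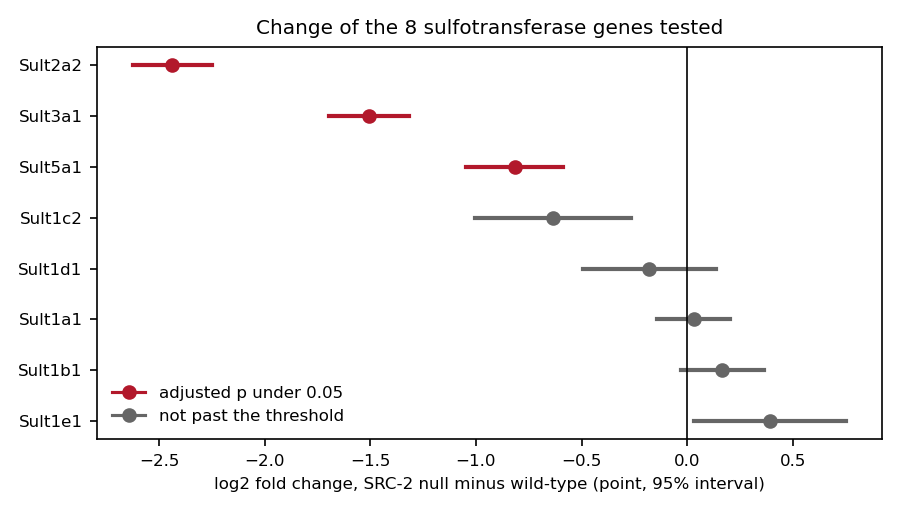
Log2 fold change (SRC-2 null minus wild-type) of the 8 sulfotransferase genes tested, as points with 95% intervals from limma. Sult2a2, Sult3a1 and Sult5a1 passed the adjusted threshold, and the intervals of Sult1d1, Sult1a1 and Sult1b1 span 0.

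The genes most like Sult2a2 over the 6 arrays, by the root mean square difference of log2 values after each gene was centred on its own mean, were Jchain (0.07), Marco (0.07), a macrophage scavenger receptor, and Cnmd (0.15). For Sult3a1 they were Gadd45g (0.06), a stress-induced gene, Vcam1 (0.06), an adhesion molecule, and Csrp3 (0.07), a LIM-domain protein. Sult2a2 and Sult3a1 differed from each other by 0.47 on this measure, since their changes differ in size. All 6 similar genes were called lower, and Cnmd passed the filter only through wild-type liver. The measure depends on the size of the difference between genotypes, so genes chosen by it would be lower as well. It rests on 6 arrays.

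Genes that make PAPS or remove sulfate had no calls. Over all genes tested 4.67% were called, so lists of this size would hold few calls in any case. Of 13 genes of PAPS and sulfate supply tested, 0 were called, and 1, Suox, the sulfite oxidase that forms sulfate, had an unadjusted p under 0.05 in limma. Papss1 and the carriers below were named for their roles after their values were seen. Papss2, a PAPS synthase, had a log2 fold change of 0.14 and Papss1, the other synthase, of -0.02, with limma adjusted p-values of 0.529 and 0.969. Slc35b2 and Slc35b3, which carry PAPS into the Golgi, had log2 fold changes of 0.08 and 0.02. The list median was 0.06. Of 10 sulfatases and their activators, which remove sulfate from conjugates and matrix or prepare the enzymes that do so, 0 were called, and 3 had an unadjusted p under 0.05 in limma, Arsg and Sumf2 above 0 and Ids below. Their log2 fold changes were 0.26, 0.20 and -0.28, and the list median was 0.01.

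Golgi sulfotransferases, which act on carbohydrate and protein chains rather than on small molecules, had 1 call in each direction among 14 tested. The shares over all genes tested were 3.13% called lower and 1.55% called higher. Gal3st1, which makes sulfatide, read 6.04 ± 0.26 in SRC-2 null and 4.75 ± 0.25 in wild-type liver (SD, n = 3 each), with a log2 fold change of 1.28 (SE 0.16, limma adjusted p = 0.00322). Hs6st1, a heparan sulfate 6-O-sulfotransferase, read 7.60 ± 0.12 in SRC-2 null and 8.24 ± 0.25 in wild-type liver, with a log2 fold change of -0.64 (adjusted p = 0.0359). The call of Hs6st1 was lost without any single array except wild-type replicate 1, with an adjusted p of up to 0.135. The list median was 0.01.

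Among 19 tested nuclear receptors and other factors known to act on sulfotransferase genes in liver, 1 was called. This is near the share called over all genes tested, 4.67%. Esr1, the oestrogen receptor, had a log2 fold change of 0.42 (adjusted p = 0.0423), and that call was lost without any of the 6 arrays in turn. Nr1i2, the pregnane X receptor, had -0.29 (SE 0.08) with an adjusted p of 0.0802. Ahr, the aryl hydrocarbon receptor, had -0.27 (adjusted p = 0.217), and Stat5b, which carries growth hormone signals, also had -0.27 (adjusted p = 0.278). SRC-2 null arrays lay below wild-type arrays for all 3 of these, which had an unadjusted p under 0.05 in limma. In the whole list this placing of the arrays was seen for 4 genes, and over all genes tested for 12.5%. The other Stat5b probe set, 1422102_a_at, stood at 0.0141 when tested on its own. Of the 19 genes, 14 had a log2 fold change below 0. Nr1i3, the constitutive androstane receptor, had -0.11, Nr1h4, the bile acid receptor, -0.04, Ppara -0.16, and Hnf4a, a factor of hepatocyte identity, -0.06, and none passed. These 4 were named for their roles after their values were seen. The list median was -0.06, against 0.00 over all genes tested.

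**Figure D3:**
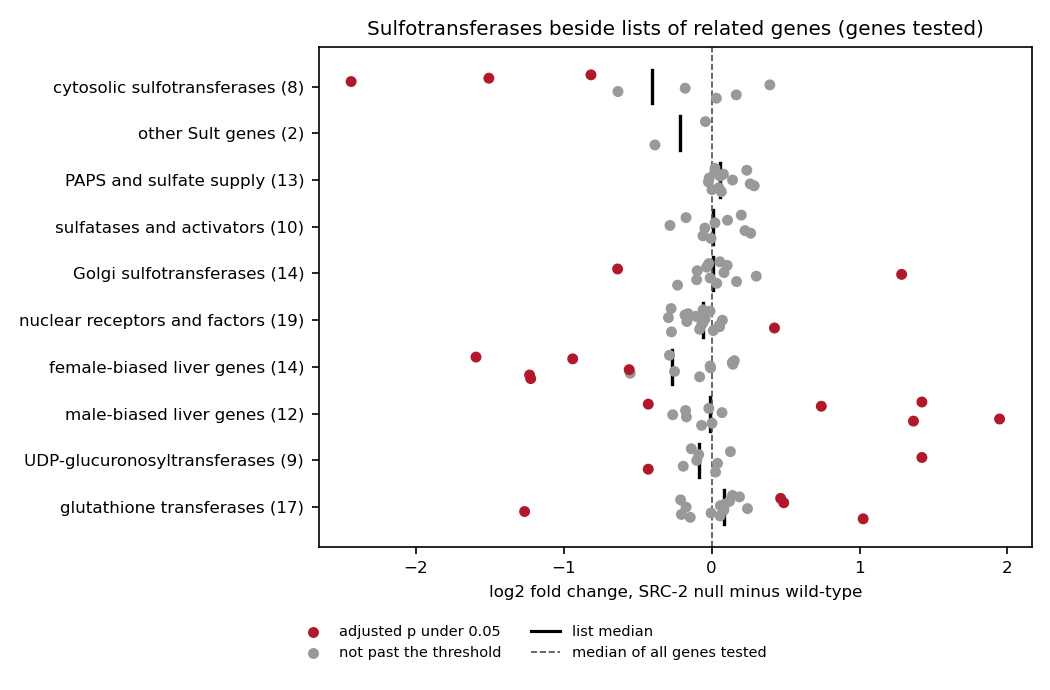
Log2 fold changes (SRC-2 null minus wild-type) of the tested genes of the sulfotransferase family and of 9 related lists, with the number tested in brackets. Red points passed the adjusted threshold, grey points did not, black bars are list medians and the dashed line is the median of all genes tested. The lists of PAPS and sulfate supply and of sulfatases lie within 0.3 of 0.

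Sult2a2 and Sult3a1 were set beside other genes known for female bias in mouse liver. Of 14 such genes tested outside the family 5 fell, or 6 with the replicate number as a block, and the list median was -0.27. None rose by limma, also without adjustment (0 with p under 0.05). They were Cyp17a1, a steroid hydroxylase, at 2.35-fold, Acot3, a thioesterase, at 2.34-fold, the transporter genes Slc22a27 and Slc22a26 at 3.02-fold and 1.92-fold, and Cyp3a44 at 1.47-fold. Cyp3a44 lay outside the rule for named genes and was picked with its value known. Its call was lost without SRC-2 null replicate 2, wild-type replicate 1 or wild-type replicate 2. Cux2, a female-biased repressor picked in the same way, stood at -0.08 on the log2 scale and did not pass. Of 12 male-biased genes, Cyp4a12a, Cyp2d9, Ugt2b38 and Susd4 rose and Ugt2b1 fell. Of these, Ugt2b38 was tested only because of its level in SRC-2 null liver, as given above. The other 7 male-biased genes were not called. The median of the male-biased list was -0.01, with 6 genes above 0 and 6 below. Over all genes tested 3.13% were called lower and 1.55% higher. All arrays were from females, so no comparison with males was made. Both lists were drawn up with earlier results of these data known. Their counts therefore describe these genes only and cannot show a sex-biased pattern. Whether the sulfotransferases moved more than these lists was not tested.

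Other conjugating families were described in the same way, beside shares over all genes tested of 3.13% called lower and 1.55% higher. Of 9 UDP-glucuronosyltransferases tested, Ugt2b38 rose and Ugt2b1 fell (log2 fold change -0.43), and the list median was -0.09. Both genes also stand in the male-biased list, and the rise of Ugt2b38 carries the same limit of the filter. The call of Ugt2b1 was lost without SRC-2 null replicate 2 or 3 or wild-type replicate 1 or 2. Of 17 glutathione transferases, Gsta2 rose 2.03-fold and Gstm3 fell 2.40-fold, with a list median of 0.08. Gstp1 and Gstt2 also rose, at 1.40-fold and 1.38-fold, and each lost its call when any of 5 arrays was left out. The difference between these families and the sulfotransferases was not tested.

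Markers of macrophages were lower in the same livers. All 12 were called lower, with a median log2 fold change of -0.99, and their summed linear level was 2405 to 2607 in SRC-2 null and 5096 to 5355 in wild-type liver. All 12 passed the filter, Timd4 only through wild-type liver. Of all genes tested, 3.13% were called lower. For B and plasma cells, 3 of 5 markers were lower, and the summed level was 225 to 274 in SRC-2 null and 1722 to 2120 in wild-type liver. For T and NK cells, 2 of 4 markers were lower, Ccl5 at -1.05 (limma adjusted p = 0.000464) and Nkg7 at -0.78 (adjusted p = 0.00415), and Nkg7 passed the filter only through wild-type liver. The summed level of that list was 145 to 164 in SRC-2 null and 205 to 219 in wild-type liver. Adipoq, a defining adipocyte gene below the filter and so not tested, had a mean of 5.10 in SRC-2 null and 2.97 in wild-type liver. Lep, another adipocyte gene below the filter, had means of 2.82 and 2.74. Retn, the remaining adipocyte marker on the array, had a log2 fold change of 0.30 (limma adjusted p = 0.242) and was not called. The part of these cells in the sulfotransferase results was not tested. None of 6 endothelial and 6 stellate cell markers was called in limma, and 1 of each had an unadjusted p under 0.05. Of 3 biliary markers tested, Krt19 was called lower, at -0.48 (limma adjusted p = 0.0130), and the other 2 stood above 0 without a call. Of 3 intestine and stomach markers tested, Fabp2 was called higher, at 0.41 (limma adjusted p = 0.0340), and 2 were not called.

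Since replicate 3 stood apart, the called members were also read within both sets of arrays. In replicates 1 and 2 only, Sult2a2, Sult3a1 and Sult5a1 had log2 fold changes of -2.49, -1.54 and -0.76, with limma adjusted p-values of 0.000535, 0.00297 and 0.0236. In replicate 3 alone, with 1 array of each genotype and no test, they were -2.34, -1.44 and -0.93. The direction and approximate size were thus the same within both sets of arrays. In the fit with the replicate number as a block the 3 stayed called, and the number of all genes called higher was 307, against 184 without the block.

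**Figure D4:**
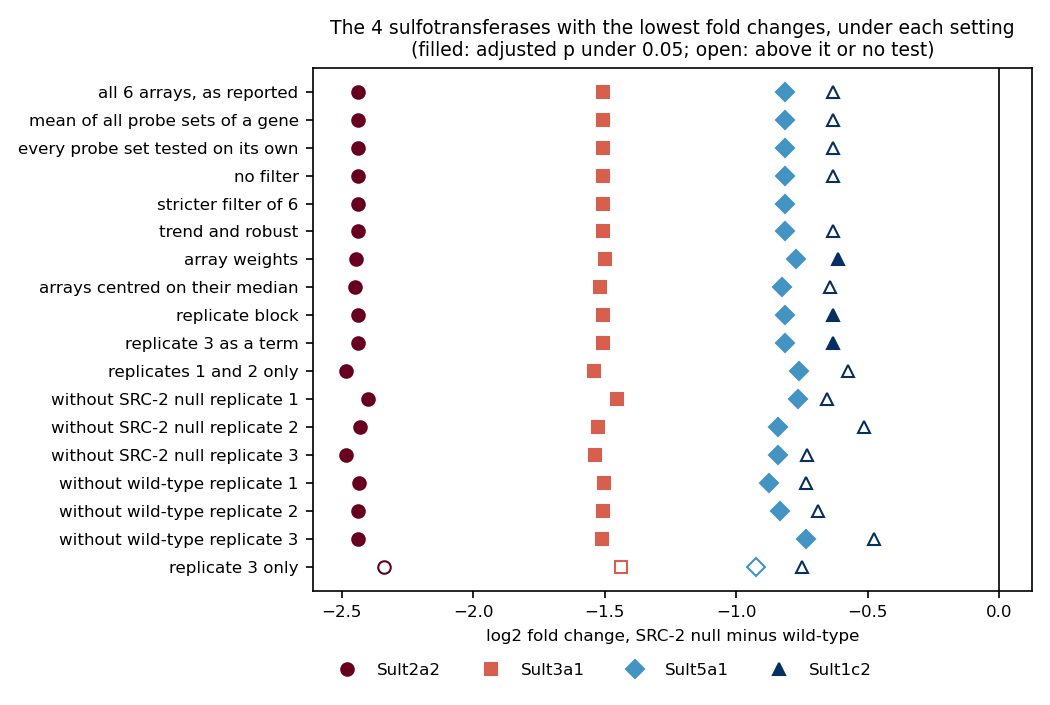
Log2 fold change (SRC-2 null minus wild-type) of the 4 sulfotransferases with the lowest values, with all 6 arrays and under each of the other settings tried. Filled symbols passed the adjusted threshold in that setting and open ones did not or had no test. Sult2a2 spans -2.49 to -2.34, Sult3a1 -1.54 to -1.44, Sult5a1 -0.93 to -0.74 and Sult1c2 -0.75 to -0.48.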

How the data were processed

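The deposited table holds log2 expression values, 1 column per array and 6 in all, which the authors obtained with RMA according to the submitters' processing notes. For the RMA version, chip description and genome build, nothing was stated in the labels used here. RMA corrects background, normalizes quantiles between arrays and pools the probes of a set, so differences near the low end are compressed. Probe sets were named from the array platform's annotation. Of 45101, 34958 had 1 gene symbol, 932 several and 9211 none, and 34754 of the 34958 matched RefSeq (GRCm38.p6) by gene number, all 9 members among them.

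Each gene was read from its brightest probe set by 6-array mean. The two-sided test of SRC-2 null against wild-type used lmFit and eBayes of limma 3.58.1 under R 4.3.3, had no covariates and was tested on simulated data. Figures were drawn with matplotlib 3.10.9. No array duplicated another. Depth has no counterpart on arrays, and their number limits the precision.

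The deviations of equally numbered arrays from their genotype means correlated at 0.18, 0.20 and 0.52 over the genes tested, each being over 0.1. The fit reported above did not pair the arrays, and the replicate number was used as a block in an alternative fit only. With the block 832 genes were called, against 556 without it. Crossed pairs of replicates 1 and 2 correlated as highly, at 0.17 and 0.21, so only replicate 3 stood out as a pair. The labels do not say what a number marks. Named genes were all members, up to 4 genes of each list with the smallest p, Ncoa2, and the 3 genes most like each of the 2 members with the smallest p. Members and lists were chosen with earlier results of these data known. Marker lists follow the same fit. Alternatives changed the probe set, filter, variance model, weights, scaling, block and arrays used.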

Additional observations from a re-analysis of the deposited data

How the results depend on the processing

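The 3 calls of Sult2a2, Sult3a1 and Sult5a1 held in all 16 alternatives with a test, and no member was called higher in any. Their highest adjusted p-values were 0.000535, 0.00297 and 0.0236, all with replicates 1 and 2 only. Sult1c2 was also called lower with array weights, the replicate block and replicate 3 as a term. Its adjusted p was 0.0182 with the replicate block and ranged from 0.00998 to 0.215. The block ended no call of a member and made 525 genes lower and 307 higher.

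All genes called numbered 985 with array weights, 983 with replicate 3 as a term and 329 with replicates 1 and 2 only, against 556. Those lower were 580, 607 and 234, against 372. Those higher were 405, 376 and 95, and 121 with every probe set tested on its own, against 184. Leaving out single arrays gave 275 to 438 in all, 210 to 315 lower and 65 to 174 higher. The total was 301 without SRC-2 null replicate 1, 294 without SRC-2 null replicate 2, 329 without wild-type replicate 1 and 275 without wild-type replicate 2. Fewer arrays are tested in these.

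Of other Sult genes 1, Sult2a8, was called with trend and robust, with array weights and with replicate 3 as a term, against 0. UDP-glucuronosyltransferases had 1 call with the stricter filter of 6 or replicates 1 and 2 only, and 1 to 2 without single arrays. Glutathione transferases had 2 to 3 without single arrays. Sulfatases had 1 (Arsg) with the mean of all probe sets or array weights. Golgi sulfotransferases had 1 with every probe set tested on its own or the stricter filter of 6, and 1 to 2 without single arrays. Among the nuclear receptors and factors 0 were called with the mean of all probe sets, every probe set on its own, no filter, centred arrays or replicates 1 and 2 only, 2 with the stricter filter, array weights or replicate 3 as a term, and 0 without each single array. The cause was not tested.

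Signs turned for Stat5b at its probe set 1422102_a_at (0.0141), Arsk at 1453108_at (-0.17), Ncoa2 at 1446827_at (0.0666), Ids with the mean of all probe sets (0.0203) and Sult4a1 without SRC-2 null replicate 1 (0.0164) or wild-type replicate 2 (0.0166), none of which was called there. Sult4a1 ranged from -0.122 to 0.0166 without single arrays. Sult1c2 and Sult1e1 lie below the stricter filter and had no value under it. Sult1c2 and Sult1e1 lie close above the filter, with SDs between 0.22 and 0.28 on the log2 scale.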

Other observations

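The wild-type arrays agreed unusually closely for both strongly lowered sulfotransferases, an observation made after the values were seen. Sult2a2 had a wild-type SD of 0.0039 and Sult3a1 of 0.0066 on the log2 scale. Ranked from the lowest wild-type SD, they were 14 and 42 among the 11895 genes tested. In SRC-2 null liver the SD was 0.085 for Sult2a2 and 0.090 for Sult3a1, at ranks 3663 and 3933. Sult5a1 had SDs of 0.086 in SRC-2 null and 0.145 in wild-type liver, and Sult1a1 of 0.034 in SRC-2 null and 0.014 in wild-type liver. With 3 arrays a genotype, an SD is imprecise, and no test of the spread was made.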
